A study of Homo sapiens with 6 samples.

Results

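The CXC chemokines and receptors described here are CXCL1, CXCL2, CXCL3, CXCL5, CXCL6, CXCL8, CXCL12, CXCL14, CXCR4 and ACKR3, read in U251MG glioma cells grown on nanofibers. These 10 genes are among 19775 that a probe set with 1 gene symbol represented on the Affymetrix HG-U133 Plus 2 array, and 22 probe sets carried their symbols. They were chosen as a family with earlier results of these data known, and CXCL8, CXCL3, CXCL2 and CXCL14 were selected on their differences in signal between the substrates. The differences of those 4 genes are therefore given as a description, without a test.

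U251MG is an established human glioma line, so all samples stand for 1 cell line. In the aligned group, 3 cultures grew on highly aligned nanofibers electrospun from poly-caprolactone, a polyester, and in the random group 3 cultures grew on randomly oriented nanofibers of the same polymer. Every culture was plated on nanofiber-coated 60 mm dishes, kept in DMEM with 10% fetal bovine serum and antibiotics without further treatment, and collected after 24 h. The cultures are described as independent, 1 array was made from each, and the question was how expression goes with substrate topography.

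Chemokines are small secreted proteins that attract cells through receptors coupled to G proteins, and the CXC class is named for the spacing of its first cysteines. CXCL1, CXCL2, CXCL3, CXCL5, CXCL6 and CXCL8 carry the ELR motif (glutamate, leucine, arginine). They act on CXCR2, and some of them also on CXCR1, attract neutrophils and promote the growth of blood vessels. Their genes are classical targets of NF-kB, and the gene of CXCL8 (interleukin-8) also of AP-1. Gliomas are known to secrete CXCL8. CXCL12 acts on CXCR4, a receptor of migrating cells, and is bound and removed by the atypical receptor ACKR3, while CXCL14 lacks the ELR motif and is made by many resting epithelia.

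The promoters show what the members share in sequence. RefSeq windows on GRCh38.p14 were matched for 9 of the 10 members, and the 150 bases before the annotated start were searched on both strands for 5 motifs: GGANNTTCC for NF-kB, TGANTCA for AP-1, TTGCNNAA for C/EBP, TATAAA for a TATA box and GGGCGG for a GC box. The windows of the 3 ELR chemokines with measurable signal are shown with that of CXCL1, their close relative with very low signal, and that of CXCL14, which differed in the other direction. Each is written from 5′ to 3′ on the strand of its gene and ends at the base before the start, and capitals mark every match to a motif.
CXCL8, plus strand, chr4:73740419-73740568: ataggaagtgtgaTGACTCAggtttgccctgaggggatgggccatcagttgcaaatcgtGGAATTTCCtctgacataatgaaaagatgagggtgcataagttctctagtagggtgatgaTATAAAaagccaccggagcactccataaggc
CXCL3, minus strand, chr4:74038690-74038839: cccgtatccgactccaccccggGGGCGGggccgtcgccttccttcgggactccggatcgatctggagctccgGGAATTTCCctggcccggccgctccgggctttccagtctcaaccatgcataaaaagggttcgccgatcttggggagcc
CXCL2, minus strand, chr4:74099196-74099345: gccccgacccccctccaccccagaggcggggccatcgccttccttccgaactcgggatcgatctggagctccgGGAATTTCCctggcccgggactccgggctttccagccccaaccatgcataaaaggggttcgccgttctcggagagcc
CXCL1, plus strand, chr4:73869243-73869392: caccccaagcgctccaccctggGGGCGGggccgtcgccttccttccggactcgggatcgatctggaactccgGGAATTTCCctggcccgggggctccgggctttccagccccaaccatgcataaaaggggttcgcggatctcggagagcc
CXCL14, minus strand, chr5:135578992-135579141: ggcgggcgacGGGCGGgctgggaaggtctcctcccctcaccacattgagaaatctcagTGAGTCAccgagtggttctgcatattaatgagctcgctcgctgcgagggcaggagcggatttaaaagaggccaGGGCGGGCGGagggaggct

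The NF-kB motif was present as GGAATTTCC in all 6 ELR chemokine genes matched, namely CXCL1, CXCL2, CXCL3, CXCL5, CXCL6 and CXCL8, and it reads as a match on both strands. It began 91 bases before the start in CXCL8, 78 bases before it in CXCL3 and CXCL1, and 77 bases before it in CXCL2. Over 35092 promoter windows of the same length, 2.41% held that motif. The AP-1 motif lay in the windows of CXCL8 and CXCL14 and in 4.16% of all windows. CXCL8 alone of the ELR genes also held the TATA motif in this form, found in 6.71% of all windows. The GC box motif was in 36.8% of all windows. In the printed windows it had 1 match each in CXCL3 and CXCL1 and several in CXCL14, where 2 of them overlapped each other. The windows of CXCL6, CXCL12 and CXCR4 also held it. The C/EBP motif in this form, found in 5.02% of all windows, had no match in the member windows, and other forms were not searched. No match of one motif overlapped a match of another in the printed windows. Aligned over their whole length, the windows of CXCL1 and CXCL3 were identical at 133 of 151 columns (88.1%) and those of CXCL2 and CXCL3 at 132 of 153 (86.3%), whereas CXCL8 shared 44.0% to 50.9% of columns with the other 5 ELR genes. These matches are letters in the reference sequence and were not measured as binding.

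The ranks within the arrays separated the members into genes with and without appreciable signal. Values are log2 signals made by RMA, which has no detection call here, so the filter asked for a signal above the array's median in 3 or more of the 6 arrays. Of the 22 member probe sets 6 passed, and they belonged to CXCL8, CXCL3, CXCL2 and CXCL14, the same 4 genes that had been noted. CXCL1, CXCL5, CXCL6, CXCL12, CXCR4 and ACKR3 had no kept probe set, and their 13 probe sets had median percentiles between 0.616 and 42.8. Just inside the filter, CXCL3 lay between percentiles 50.2 and 74.6 over the arrays, and just outside it CXCR4 probe set 209201_x_at lay between 40.4 and 45.4. Levels of different probe sets are not compared beyond this rank, because probes differ in how well they bind.

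**Figure D1:**
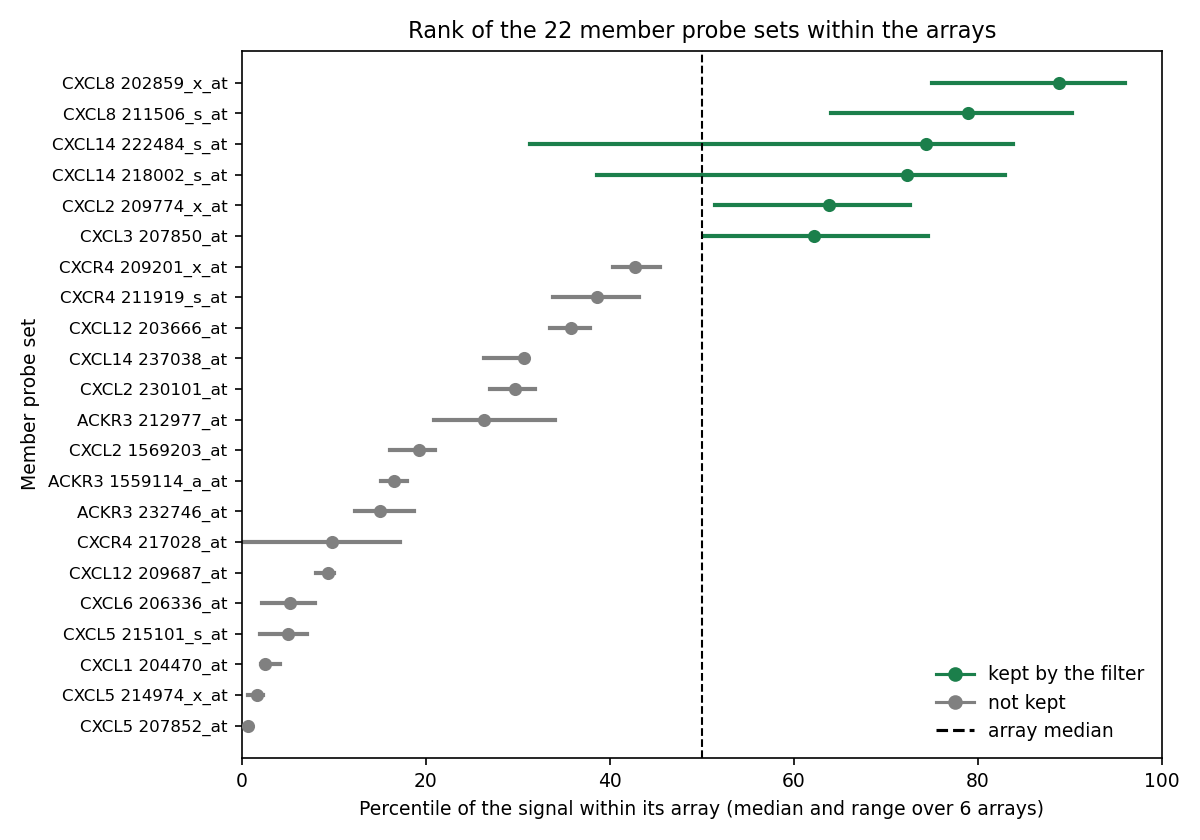
Percentile of each of the 22 member probe sets within its array (x axis, percent), as the median and range over 6 arrays, with the array median as a dashed line. The 6 kept probe sets of CXCL8, CXCL14, CXCL2 and CXCL3 lie with their medians above 60, while all others lie below the line, down to CXCL5 at 0.616.

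Before the members' values, 1 array has to be named. Aligned 3 stood apart from the other 5, at 0.38 log2 units (root mean square over 12381 genes) from the random mean, against 0.17 and 0.19 for aligned 1 and 2. Differences of the 4 kept members, CXCR4 and ACKR3 212977_at are therefore also given without it. Of the glioma and astroglia markers, VIM, CD44, NES, SOX9 and FABP7 had median percentiles from 97.6 to 99.99, whereas GFAP was at 48.0 and S100B at 43.7. Of 8 leukocyte markers on the array 2 were kept, CSF3R and AIF1, while PTPRC, the pan-leukocyte marker CD45, was at percentile 18.6 and LYZ at 16.1. The summed log2 signal of these 8 markers was 39.23 to 39.91 on aligned and 38.31 to 39.20 on random arrays, so that the groups nearly met. Of the 8, CSF3R and ITGAM read higher on all aligned arrays, as did 7.78% of all 54613 probe sets. Of 5 endothelial markers 2 were kept, with CDH5 at percentile 25.97, and their summed signal was 26.75 to 27.45 on aligned and 26.01 to 26.86 on random arrays. The glioma markers read lower on aligned fibers. Their summed signal was 67.4 to 72.7 on aligned and 72.9 to 74.9 on random arrays. Of these 7 markers S100B and SOX9 lay lower on all aligned arrays, as did 6.54% of all probe sets. FABP7 read 10.39 on aligned 3 against 11.86 to 12.50 on the others. Of the 6 kept 1 was lower at an unadjusted p under 0.05 in limma, where over all genes 5.81% were. That count became 4 without aligned 1, 2 with the replicate block or with no filter, and 0 without random 2 or with the suffixes _x_at and _s_at omitted. The part of these markers and of aligned 3 in the results below was not tested.

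CXCL8 showed the largest positive difference of the 12381 genes compared. Its probe set 202859_x_at read 10.40, 9.30 and 10.70 on the aligned arrays 1 to 3 and 9.26, 7.98 and 7.69 on the random arrays 1 to 3. All aligned values lay above all random values, but aligned 2, the lowest of its group, exceeded random 1, the highest of the other, by only 0.04. The means were 10.13 ± 0.73 and 8.31 ± 0.84 (SD, n = 3 each), so that aligned exceeded random by 1.82 ± 0.48 (SE) on the log2 scale, which is 3.54-fold. RNA was taken from whole cultures, so more cells that make a transcript and more transcript per cell cannot be told apart, here and for every gene below.

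The other CXCL8 probe set, 211506_s_at, gave the same picture with a difference of 1.84. It read 9.27, 8.08 and 9.50 on aligned and 8.05, 6.59 and 6.69 on random arrays, and again aligned 2 and random 1 nearly met. Between arrays of equal number the first probe set differed by 1.13, 1.33 and 3.01 for numbers 1, 2 and 3. Without aligned 3 its difference was 1.54, and leaving out any 1 array gave 1.51 to 2.30.

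CXCL3, another attractant of neutrophils, had a wider gap between the groups than CXCL8 and a smaller difference. Its only probe set, 207850_at, read 6.79, 6.87 and 7.58 on aligned and 6.13, 6.04 and 5.64 on random arrays. The lowest aligned value lay 0.66 above the highest random value. The means were 7.08 ± 0.44 and 5.94 ± 0.26 (SD, n = 3 each), which is 1.14 ± 0.22 (SE) on the log2 scale or 2.20-fold, and 0.89 without aligned 3. Aligned 3 was the highest and random 3 the lowest array, and equal numbers differed by 0.66, 0.83 and 1.94. In this comparison 15 genes had a larger positive difference.

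CXCL2, a close paralog of CXCL3, showed the same order of arrays, but only in 1 of its 3 probe sets. Probe set 209774_x_at read 6.77, 6.79 and 7.37 on aligned and 6.38, 6.09 and 5.72 on random arrays, with the groups 0.40 apart. The means were 6.98 ± 0.34 and 6.06 ± 0.33 (SD, n = 3 each), which differ by 0.92 ± 0.21 (SE) on the log2 scale, 1.89-fold, and by 0.72 without aligned 3. The suffix _x_at marks probe sets whose probes can bind other transcripts, and CXCL1, CXCL2 and CXCL3 are close paralogs. The other CXCL2 probe sets were dim and differed by 0.17 (230101_at, percentile 29.7) and 0.14 (1569203_at, percentile 19.3), the first with the groups 0.03 apart and the second with overlapping groups. With probe sets of the suffixes _x_at and _s_at left out, CXCL3 was the single member that remained measurable. How much of the CXCL2 and CXCL8 signal came from other transcripts was not tested.

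CXCL14 lay on the other side, with lower signal on aligned fibers and the widest spread. Probe set 222484_s_at read 7.96, 6.89 and 4.56 on aligned and 8.61, 8.45 and 7.24 on random arrays. The groups overlapped, because aligned 1 read above random 3. The means were 6.47 ± 1.74 and 8.10 ± 0.75 (SD, n = 3 each), which gives -1.63 ± 0.80 (SE) on the log2 scale, 3.10-fold higher on random fibers. In this comparison 3 genes had a more negative difference. Equal numbers differed by -0.66, -1.56 and -2.68, all in 1 direction.

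The size of the CXCL14 difference hung on single arrays. It was -0.68 without aligned 3, whose CXCL14 signal lay below its array median, and -2.38 without aligned 1. The second probe set, 218002_s_at, read 7.67, 6.72 and 5.00 on aligned and 8.51, 8.26 and 7.09 on random arrays, a difference of -1.49 that became -0.76 without aligned 3. Both of these carry the suffix _s_at, which marks probes shared by several transcripts. The third, 237038_at, was dim at percentile 30.6 and differed by 0.01.

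**Figure D2:**
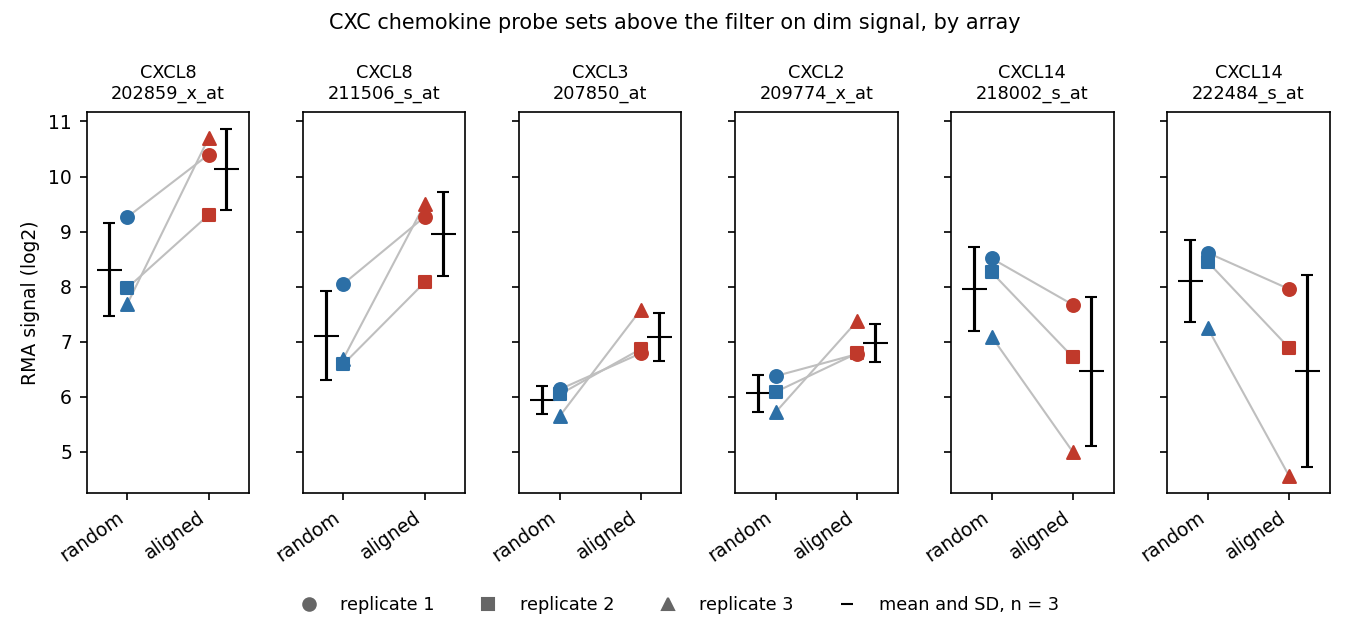
RMA signal (y axis, log2) of the 6 kept probe sets on random and aligned fibers, with 1 point per array, grey lines between arrays of equal number, and the mean with SD (n = 3) beside each group. All 3 aligned points lie above all random points for CXCL8, CXCL3 and CXCL2, whereas in CXCL14 aligned 1 lies above random 3 and aligned 3 is far below the others.

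Of the 6 kept member probe sets 4 had groups that did not overlap, where the share over all 27621 kept probe sets was 16.5%, and nothing is read from that count because these genes were noted for this difference. The spread within groups was wide in all 4 genes. The pooled within-group SD was 1.34 for CXCL14, 0.79 for CXCL8, 0.36 for CXCL3 and 0.33 for CXCL2, against a median of 0.12 over the 12381 genes, which put them at percentiles 99.98, 99.8, 96.6 and 96.1. Random 1 read highest of the random arrays in all 6 kept probe sets, and random 3 lowest in all but CXCL8 211506_s_at, where random 2 was lowest. Aligned 3 was the highest array for CXCL8, CXCL3 and CXCL2 and the lowest for CXCL14.

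CXCL1, CXCL5 and CXCL6, the ELR chemokines without appreciable signal, differed by 0.18 at most. CXCL1, which shares most of its promoter window with CXCL3 as printed above, read 2.62, 2.50 and 2.62 on aligned and 2.47, 2.50 and 2.42 on random arrays, at a median percentile of 2.52. The groups touched between aligned 2 and random 2, and the difference was 0.11 ± 0.08 (SE; adjusted p = 0.697 in limma fitted over all 54613 probe sets without the filter). CXCL6 read 2.60, 2.92 and 2.86 on aligned and 2.65, 2.76 and 2.43 on random arrays, which overlap. Its difference was 0.18 ± 0.12 (SE; adjusted p = 0.677 in limma). The 3 probe sets of CXCL5 differed by -0.02, 0.03 and 0.01, with overlapping groups and limma adjusted p-values of 0.965, 0.950 and 0.992, and each turned sign with 1 or more of the arrays left out. Signals this low set no bound on a difference in transcript number.

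The 6 ELR members lie in 1 cluster on chromosome 4, in the RefSeq order CXCL8, CXCL6, PF4V1, CXCL1, PF4, PPBP, CXCL5, CXCL3 and CXCL2. Only CXCL8 at one end and CXCL3 and CXCL2 at the other were kept. The platelet chemokine genes between them, PF4, PF4V1 and PPBP, were dim, at median percentiles of 43.0, 0.356 and 12.3, and differed by 0.07, 0.01 and -0.05 with overlapping groups. The neighbour beyond CXCL2, MTHFD2L of mitochondrial folate metabolism, read 9.05 ± 0.05 on aligned and 9.05 ± 0.08 on random arrays (SD, n = 3 each). RASSF6, the neighbour on the side of CXCL8, was dim and differed by -0.04. AFM, the next gene beyond RASSF6, was dim at percentile 7.58 and differed by 0.20, with the aligned arrays all higher and the groups 0.03 apart.

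**Figure D3:**
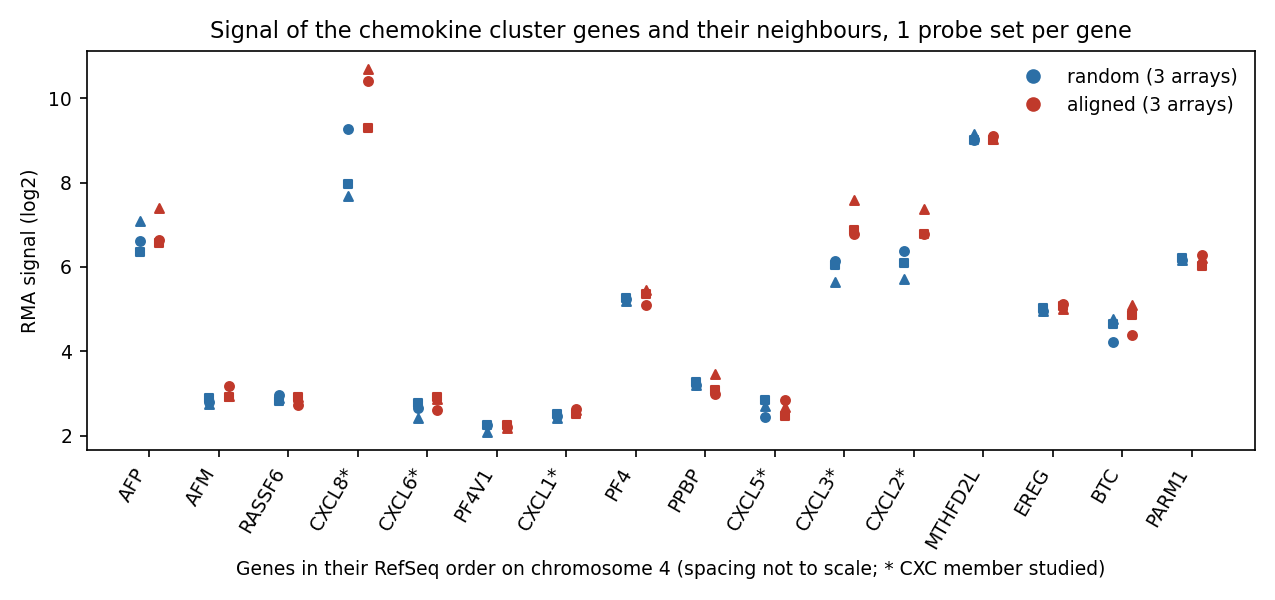
RMA signal (y axis, log2) of the chromosome 4 chemokine genes and their neighbours in RefSeq order (x axis, spacing not to scale), 1 probe set per gene and 1 point per array. The groups lie apart for CXCL8, CXCL3 and CXCL2, and by 0.03 for the dim neighbour AFM, while the genes from CXCL6 to CXCL5 lie low with overlapping groups.

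The receptors and CXCL12 were all dim, and none reached the adjusted threshold. Without the filter, 0 of 54613 probe sets had an adjusted p under 0.05 in limma (0% called) and 4698 had an unadjusted p under 0.05 (8.60%). Among the 13 probe sets of the 6 members that had not been noted, 3 were at an unadjusted p under 0.05 in limma, and in 4 the groups did not overlap, against 14.3% of all probe sets. Over the 26992 probe sets below the filter, the shares were 6.68% and 12.1%. The 4 with groups apart belong to CXCR4 and ACKR3, and probe sets of 1 gene are not independent of each other.

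CXCR4 read lower on aligned fibers in each of its 3 probe sets, with no overlap between the groups, a pattern of 6.54% of all 54613 probe sets, while 4.67% were lower at an unadjusted p under 0.05. Probe set 217028_at read 2.89, 2.43 and 2.15 on aligned and 3.19, 3.34 and 3.53 on random arrays. Its difference was -0.86 ± 0.18 (SE; unadjusted p = 0.00101, adjusted p = 0.562 in limma), at a median percentile of only 9.79. Probe set 211919_s_at read 4.96, 4.81 and 4.71 on aligned and 5.25, 5.12 and 5.00 on random arrays, so that the groups were 0.04 apart. Its difference was -0.30 ± 0.10 (SE; unadjusted p = 0.0188, adjusted p = 0.562 in limma). Probe set 209201_x_at, the brightest by rank, read 5.19, 5.19 and 5.09 on aligned and 5.38, 5.29 and 5.26 on random arrays, a difference of -0.15 ± 0.08 (SE; adjusted p = 0.623 in limma).

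The direction of CXCR4 was the same with each array left out, with -1.06 to -0.69 for 217028_at, -0.36 to -0.23 for 211919_s_at and -0.18 to -0.12 for 209201_x_at, and without aligned 3 with -0.69, -0.24 and -0.12. The unadjusted p of 211919_s_at passed 0.05 without aligned 2 (0.0507), without aligned 3 (0.0604) and without random 1 (0.0745) in limma. Between equal numbers, 217028_at differed by -0.30, -0.91 and -1.38 and 211919_s_at by -0.29, -0.31 and -0.29. The 3 probe sets thus had 1 direction and sizes from -0.86 to -0.15.

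ACKR3, which scavenges CXCL12, read slightly higher on aligned fibers in probe set 212977_at, where over all probe sets 7.78% lay above on every aligned array and 3.94% were higher at an unadjusted p under 0.05. It read 4.22, 4.25 and 4.73 on aligned and 4.22, 3.86 and 4.05 on random arrays, and the groups met to within 0.01 at aligned 1 and random 1. The difference was 0.36 ± 0.15 (SE; unadjusted p = 0.0448, adjusted p = 0.577 in limma). It was 0.19 without aligned 3, where the unadjusted p was 0.146 in limma, and the unadjusted p was 0.157 without random 2 and 0.0909 without random 3. The other ACKR3 probe sets overlapped between groups, with differences of 0.07 and 0.11 and adjusted p-values of 0.808 and 0.817 in limma.

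CXCL12, the ligand of both receptors, was represented by 203666_at at percentile 35.8 and by 209687_at at percentile 9.32. The first read 4.96, 4.72 and 4.87 on aligned and 4.85, 4.81 and 4.64 on random arrays, which overlap. Its difference was 0.09 ± 0.10 (SE; adjusted p = 0.814 in limma), and that of the second was -0.01 (adjusted p = 0.985 in limma) and 0.02 without aligned 3.

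**Figure D4:**
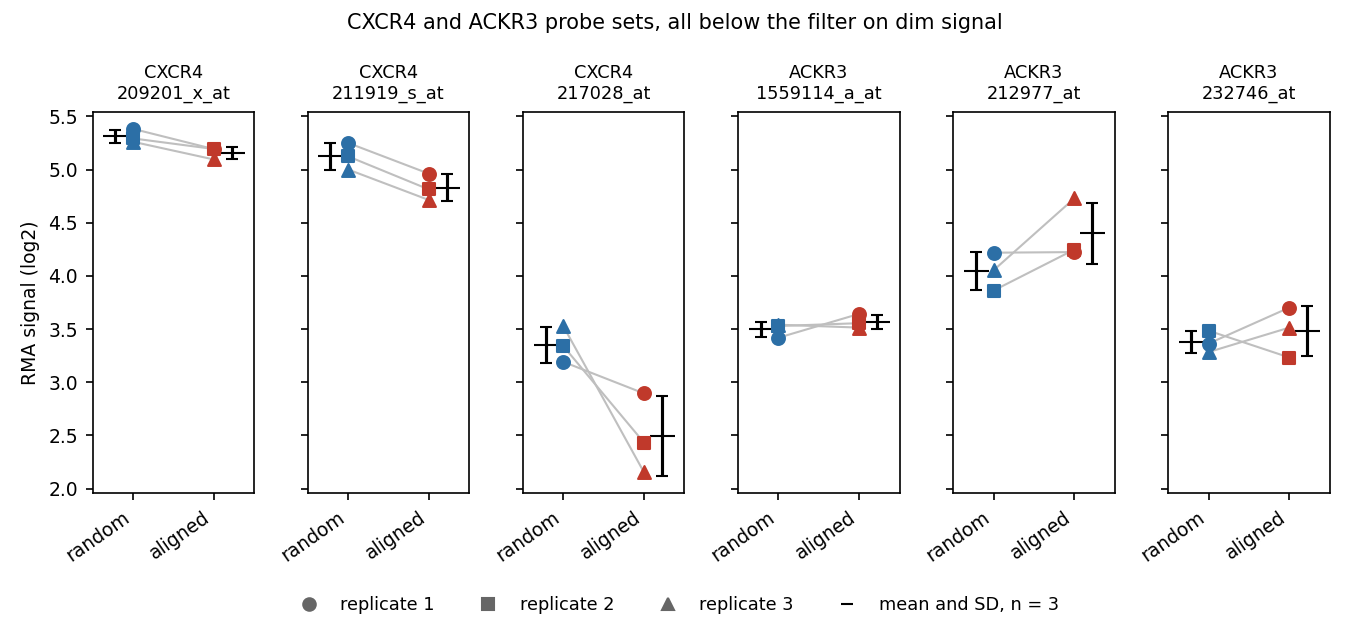
RMA signal (y axis, log2) of the 3 CXCR4 and 3 ACKR3 probe sets on random and aligned fibers, with 1 point per array, grey lines between equal numbers and the mean with SD (n = 3) beside each group. The aligned points lie below the random points in every CXCR4 panel, by 0.07 in 209201_x_at, 0.04 in 211919_s_at and 0.30 in 217028_at. Of the ACKR3 panels only 212977_at separates the groups, by 0.01.

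Other chemokine genes were mostly dim. Of 15 other CXC chemokines and receptors 5 were kept, and 0 of them had an unadjusted p under 0.05 in limma, where the share over all 12381 genes was 10.5%. Without the filter 1 of the 15 had one. Of the receptors of the ELR chemokines, CXCR1 was kept at a median percentile of 63.7, with overlapping groups at 6.57 on aligned and 6.56 on random arrays, while CXCR2 was dim at percentile 6.34. CXCL16, a chemokine anchored in the membrane, read 7.05 ± 0.03 on aligned and 7.12 ± 0.04 on random arrays (SD, n = 3 each), and its limma adjusted p was 0.687. Of 16 CC, XC and CX3C genes on the array 3 were kept, and 0 had an unadjusted p under 0.05 in limma, or 1 with the replicate block, with probe sets averaged or without random 1. CCL2, which attracts monocytes, read 10.24, 9.04 and 7.26 on aligned and 10.41, 10.13 and 8.41 on random arrays. As in CXCL14, aligned 3 was the lowest array and random 3 the lowest of its group. The CCL2 difference of -0.80 ± 0.79 (SE; adjusted p = 0.681 in limma) was -0.01 without aligned 3. CX3CL1 differed by -0.29 ± 0.14 (SE; adjusted p = 0.486 in limma), by -0.13 without random 3 and by -0.45 with probe sets averaged.

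Among the 7 gene lists, transcription factors and inhibitors linked to the ELR chemokine genes held the most with an unadjusted p under 0.05, although 0 passed the adjusted threshold over 12381 genes in limma. Of these 20 genes, all kept, 16 had a positive difference, where 52.5% of all genes had one. On aligned fibers 6 were higher and 2 lower at an unadjusted p under 0.05, against 4.72% higher and 5.81% lower over all genes. The median difference was 0.17, and over all genes it was 0.01. The lists were chosen with earlier results of these data known, so these counts are a description and not a test. Instead of 8 genes, 4 were counted when random 2 was left out, 5 when random 3 was, and 5 of 14 with _x_at and _s_at probe sets left out. Inhibitors and feedback genes of NF-kB, and its subunit RELB, were among those higher. TNFAIP3, which shuts off NF-kB signalling, read 7.708, 8.002 and 7.899 on aligned and 7.404, 7.496 and 7.266 on random arrays, without overlap, a difference of 0.48 ± 0.10 (SE). NFKBIZ, an inducible co-regulator of NF-kB target genes, differed by 0.46 ± 0.11, RELB by 0.42 ± 0.16 and NFKBIB by 0.23 ± 0.10 (SE). Without aligned 3, RELB differed by 0.26 and NFKBIB by 0.14. The other NF-kB subunits RELA, NFKB1, NFKB2 and REL differed by 0.11, 0.12, 0.21 and -0.13. Their unadjusted p-values were 0.212, 0.170, 0.0560 and 0.283 in limma. The inhibitor NFKBIA differed by 0.12 (unadjusted p = 0.228 in limma). Without aligned 3, RELA differed by 0.07, NFKB2 by 0.12, REL by -0.02 and NFKBIA by 0.04.

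AP-1 and C/EBP factors went in both directions. FOSL1, a partner of JUN in AP-1, read 10.06, 10.04 and 10.26 on aligned and 9.75, 9.56 and 9.25 on random arrays, a difference of 0.60 ± 0.14 (SE). ATF3, a stress-induced factor, differed by 0.94 ± 0.34 and by 0.53 without aligned 3. FOSL2 differed by -0.36 ± 0.14 and by -0.22 without aligned 3, and CEBPD by -0.43 ± 0.11 (SE). JUN differed by 0.05 and CEBPB by 0.44 (unadjusted p = 0.484 and 0.0573 in limma), and CEBPB by 0.22 without aligned 3. In the fit with a replicate block 8 genes were counted again, but ATF3, RELB and NFKBIB were no longer in it, with unadjusted p-values of 0.0614, 0.0750 and 0.0580 in limma. The adjusted p was 0.463 to 0.472 in limma for each of the 8 genes counted.

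The median difference of the 16 kept genes for cytokine and danger signals was 0.07. Of them 1, higher on aligned fibers, was at an unadjusted p under 0.05 in limma, against 10.5% of all genes in either direction. That gene was IL1R1, the receptor of interleukin-1, which read 5.83, 5.95 and 6.24 on aligned and 5.85, 5.39 and 5.52 on random arrays, a difference of 0.42 ± 0.15 (SE; adjusted p = 0.463 in limma). Its groups overlapped. The count of 1 was 0 without aligned 3, random 2 or random 3 and with the filter at the 75th percentile, 2 without aligned 2, with no filter or with a replicate block, and 3 without aligned 1. Of the 16 genes, 9 had a positive and 7 a negative difference, where 52.5% of all genes had a positive one. IL1RAP differed by -0.40 ± 0.23 and TLR4 by -0.28 ± 0.14 (SE), and without aligned 3 by -0.13 and -0.17. IL6 differed by 0.42 ± 0.28, IL1B by 0.11 ± 0.14 and LIF by 0.10 ± 0.30 (SE). Without random 3, IL1B differed by -0.05 and LIF by -0.26, and without aligned 3, IL6 differed by 0.23. IL1A and TNF were dim, at percentiles 48.3 and 37.9. IL1A read lower on all aligned arrays, by -0.36 (unadjusted p = 0.0211 in limma without the filter) and by -0.22 without aligned 3. TNF read higher on all aligned arrays, by 0.15. The ELR chemokine messages belong to the AU-rich class. Of 13 genes for decay and stability of such messages, only the decapping enzyme gene DCP2 was at an unadjusted p under 0.05. It differed by -0.45 ± 0.11 (SE; adjusted p = 0.463 in limma). Over all genes 10.5% were at an unadjusted p under 0.05 in limma, and 5.81% were lower at one. The count of 1 was 2 without aligned 2, random 1 or random 3, with probe sets averaged or with the suffixes _x_at and _s_at omitted, and 3 without aligned 1. ZFP36, which binds AU-rich elements, differed by 0.12 ± 0.11 (SE).

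Downstream of the receptors, 2 of 24 kept genes of signalling and desensitisation were at an unadjusted p under 0.05 in limma, both higher, where the share over all genes was 4.72% higher and 10.5% in either direction, and the median difference was 0.01. PREX1, an activator of the GTPase RAC, differed by 0.43 ± 0.11 and PIK3CG, the lipid kinase subunit activated by G protein-coupled receptors, by 0.27 ± 0.09 (SE; adjusted p = 0.463 each in limma). Instead of 2 there were 4 with the replicate block, with probe sets averaged or without random 1, 5 when aligned 1 was left out, 1 of 16 with the suffixes _x_at and _s_at omitted and 0 with the filter at the 75th percentile. Of 13 kept genes of chemokine processing and presentation 0 were at an unadjusted p under 0.05 in limma, with a median difference of -0.04. That count became 2 when aligned 1 or random 1 was left out or the replicate number entered as a block, and 1 without random 3. SDC4, a heparan sulfate carrier that binds chemokines, differed by 0.26 ± 0.13 (SE; adjusted p = 0.483 in limma) and by 0.15 without aligned 3.

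**Figure D5:**
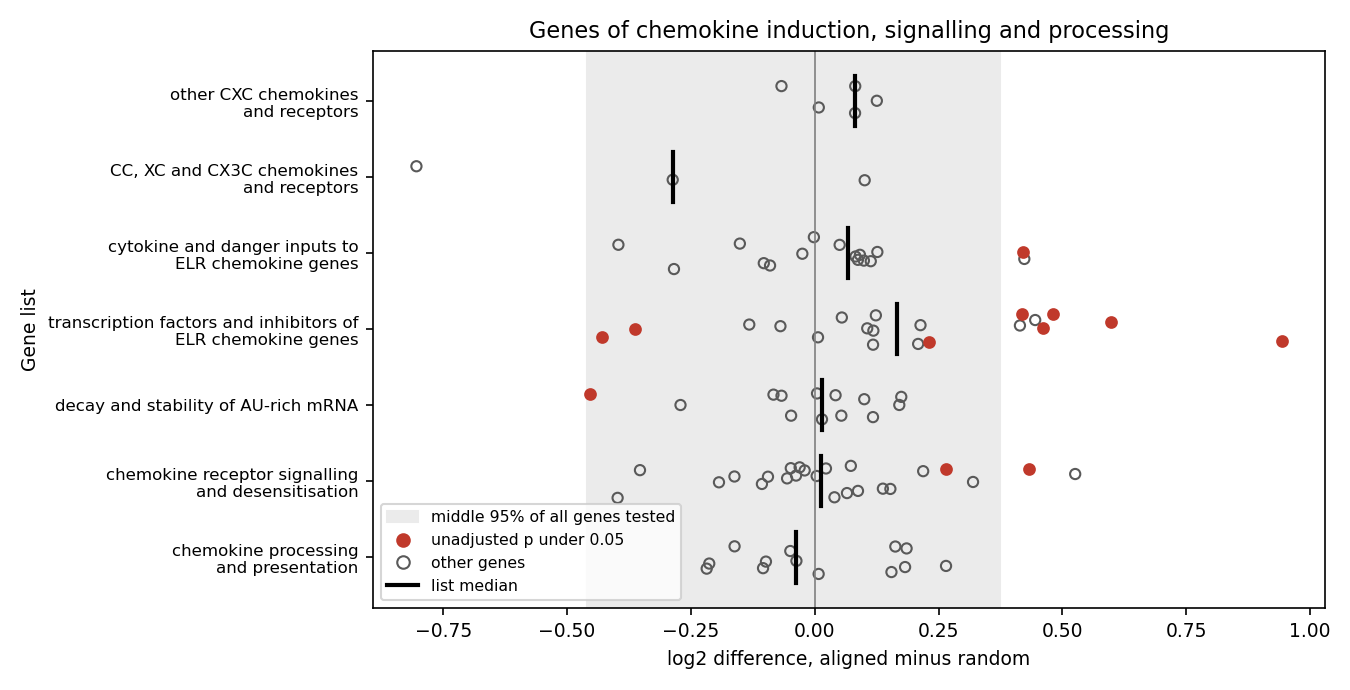
Log2 difference of aligned minus random (x axis) for the tested genes of 7 gene lists (y axis), with filled points for an unadjusted p under 0.05 in limma, a bar at each list median and a grey band for the middle 95% of all genes tested, from -0.46 to 0.37. Of the 12 filled points 8 are among the transcription factors and inhibitors, 6 to the right and 2 to the left of 0, and no gene shown passed the adjusted threshold.

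Array profiles like those of the members were sought among 562 genes that were no members and ranged over at least 1 log2 unit, by Pearson correlation over the 6 arrays. The measure takes in the difference between groups and the distance of aligned 3, and it is given as a description of 6 arrays. Most like CXCL8 were ALDH1A3, which makes retinoic acid (r = 0.98), SLFN5 (r = 0.97), the transmembrane collagen gene COL13A1 (r = 0.97), IRAK2, a kinase of interleukin-1 receptor signalling (r = 0.96), DNER (r = 0.96) and TMCC3 (r = 0.96). IRAK2 read 8.45, 8.33 and 8.68 on aligned and 8.11, 7.93 and 7.66 on random arrays, without overlap. Most like CXCL14 were TP53INP2, SAT1, the netrin receptor gene UNC5C, LINC01119, OLMALINC and SYNGR3, with r from 0.991 to 0.995. UNC5C read 8.64, 8.35 and 7.78 on aligned and 8.93, 8.82 and 8.54 on random arrays, so that, as in CXCL14, aligned 1 lay above random 3.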

How the data were processed

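U251MG RNA was read on 6 arrays, 3 per group, and the titles gave group and replicate number. The authors deposited log2 values, computed by RMA (per the submitters' processing notes) in a version not given in the sources named. From the 54675 probe sets 62 controls were removed, 27621 passed the filter named above, and genes were named from the platform annotation, where a probe set had 1 symbol (41091, of which 41037 matched RefSeq symbols; 1801 had several and 11721 none). Each gene was represented by its kept probe set with the highest mean (12381 genes). The contrast of aligned minus random came from limma 3.58.1 under R 4.3.3 (lmFit, then eBayes), two-sided, without covariate and with 4 residual degrees of freedom, and adjusted by Benjamini-Hochberg at 0.05. The 6 members that were not noted were dim, so their tests come from the fit without the filter. Precision is limited by the number of arrays, with a median standard error of 0.10 over genes.

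The members and lists were chosen with earlier results of these data known. The rule for named genes took all member probe sets, up to 4 genes per list with the smallest unadjusted p, and any list gene at an unadjusted p under 0.05. It also took the 6 genes most like each of CXCL8 and CXCL14. RELA, NFKB1, NFKB2, REL, NFKBIA, JUN, CEBPB, IL6, IL1A, IL1B, LIF, ZFP36, TNF, CXCR1 and CXCR2 were named after their values were seen. So were the markers and the chromosome 4 neighbours. Deviations from the group means correlated over genes by 0.37, 0.32 and 0.11 for the numbers 1, 2 and 3, all over the limit of 0.1 for treating them as pairs. Arrays of unequal number gave -0.43 to 0.19, and the highest, aligned 2 with random 3, exceeded the value for number 3. The labels do not say what a number shares. The main fit left the numbers out because the labels state no covariate, and the replicate block was run as an alternative. The code was tested on simulated data. Plots used matplotlib 3.10.9 and Python 3.11.15.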

Additional observations from a re-analysis of the deposited data

How the results depend on the processing

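The count of 0 genes past the adjusted threshold in limma held under all alternatives run, namely a stricter filter (75th percentile) or none, median centring, a second quantile normalization, a prior with trend and robust estimation, the replicate block, averaging a gene's probe sets, omission of the suffixes _x_at and _s_at, and each array left out. At an unadjusted p under 0.05, 1303 genes became 851 with the filter at the 75th percentile, where fewer genes were tested, 1687 with the replicate block and 624 to 2491 with 1 array left out (2491 without aligned 1, 815 when aligned 3 was omitted, 739 for random 2 and 624 for random 3). The 2676 probe sets became 4698 with no filter, 1380 with the filter at the 75th percentile, 1707 with the suffixes omitted, where the number tested changed too, 3710 with the block and 1262 to 4812 with 1 array left out. The 2233 genes with groups apart became 1485 with the stricter filter and 2834 to 4974 with 1 array left out. Groups that lie apart stay apart when an array is left out, so this last count could not fall. The cause of the other changes with single arrays was not tested.

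Over the settings that could be run, the differences of the kept members spanned 1.51 to 2.30 for CXCL8, 0.89 to 1.28 for CXCL3, 0.72 to 1.07 for CXCL2 and -2.38 to -0.68 for CXCL14. With the suffixes omitted, CXCL8, CXCL2 and CXCL14 gave no value, and with the stricter filter CXCL2 and CXCL3 gave none. The block changed no adjusted call. For CXCR4 217028_at it gave an unadjusted p of 0.00334 and an adjusted p of 0.431 in limma without the filter. In the same fit the unadjusted p was 0.00809 for CXCR4 211919_s_at and 0.0346 for ACKR3 212977_at (adjusted p = 0.431 and 0.444 in limma). Over the 6 arrays left out in turn, the adjusted p of CXCR4 217028_at was 0.103 to 0.936. Dim probe sets could be recognised only by rank, which limits what the 6 members below the filter can show.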
